A study of Mus musculus with 15 samples.

Results

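The lincRNA probes described here are the 16251 non-control probes whose probe name starts with A_30_P, out of 55681 non-control probes (29.2%) on an Agilent mouse gene expression microarray. They were picked out by that name alone, and no measured value enters this rule, though it was set with earlier results of these data known. Of these probes, 16194 carry a genomic interval in place of a gene name and belong to 4610 loci, 2318 on the forward strand, 2289 on the reverse strand and 3 without a strand. The other 57 probes belong to 12 named long non-coding transcripts. A locus has 1 to 10 probes (median 3), and its interval is 62 bases to 7128487 bases wide (median 10676). Intervals are given as the array tables name them, on mouse build mm9, and the gene, exon or intron at an interval was not looked up because no annotation of that build was used here.

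The study measured RNA of mouse embryonic stem cells, the self-renewing cells of the early embryo, grown on gelatin. There were 5 groups of 3 arrays. Wild-type cells were set against Nat1-null cells, which carried no transgene. The other 3 groups were Nat1-null cells with a doxycycline-inducible (tet) transgene: tet-Map3k3 without doxycycline (Dox), tet-Map3k3 with Dox, and tet-EGFP with Dox, so that every group except the wild-type lacked Nat1. The title names Nat1 as a promoter of translation of specific proteins in differentiation, and Map3k3 is a kinase upstream of MAP kinases. Whether the 3 samples of a group came from separate cultures or clones is not stated, so the tests see only how far these samples spread, which may be technical, and the number of arrays limits the precision. Eif4g2, the symbol of Nat1, had a log2 level of 4.31 ± 0.15 (SD, n = 3) in wild-type and 1.71 ± 0.20 in null cells, and lay between 1.56 and 1.62 in the 3 transgene groups (limma, adjusted p = 3.34e-08 for null against wild-type). All 8 of the embryonic stem cell markers were well above background in every group.

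Long intergenic non-coding RNAs (lincRNAs) are transcripts that are spliced and polyadenylated like messenger RNAs but encode no known protein. Many are expressed at low levels and in few cell types, and some act in the nucleus. Xist coats and silences the inactive X chromosome, and Tsix is its antisense repressor. Imprinted domains, in which only the copy from the mother or only that from the father is transcribed, often hold such RNAs, H19 among them. Neat1 builds paraspeckles, and Malat1, which the array calls NEAT2, lies in nuclear speckles.

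The microarray tables held no probe sequences, so none is shown for the loci named by interval. For 6 of the named transcripts the RefSeq table of promoters (GRCm38.p6, a build other than that of the loci) held the 250 bases before and 50 after the gene start. Those of NEAT2, TUG1 and XIST are shown because probes of these transcripts changed in the comparisons below. Capitals mark matches, on either strand, to any of 4 motifs. These were the TATA box (spelled TATAAA), the GC box (spelled GGGCGG), the sequence CCAAT and the core of sites for the factor AP-1 (spelled TGANTCA).
NEAT2: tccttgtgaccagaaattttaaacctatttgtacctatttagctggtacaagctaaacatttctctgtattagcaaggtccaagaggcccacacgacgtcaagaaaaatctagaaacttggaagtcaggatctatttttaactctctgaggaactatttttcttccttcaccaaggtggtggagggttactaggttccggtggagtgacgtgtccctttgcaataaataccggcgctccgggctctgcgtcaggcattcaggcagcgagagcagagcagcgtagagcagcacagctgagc
TUG1: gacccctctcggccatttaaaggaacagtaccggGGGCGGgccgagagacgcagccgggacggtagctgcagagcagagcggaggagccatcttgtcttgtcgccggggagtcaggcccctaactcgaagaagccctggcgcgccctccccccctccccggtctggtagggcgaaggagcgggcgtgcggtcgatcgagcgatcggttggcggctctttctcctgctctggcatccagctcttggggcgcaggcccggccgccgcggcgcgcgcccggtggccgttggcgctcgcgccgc
XIST: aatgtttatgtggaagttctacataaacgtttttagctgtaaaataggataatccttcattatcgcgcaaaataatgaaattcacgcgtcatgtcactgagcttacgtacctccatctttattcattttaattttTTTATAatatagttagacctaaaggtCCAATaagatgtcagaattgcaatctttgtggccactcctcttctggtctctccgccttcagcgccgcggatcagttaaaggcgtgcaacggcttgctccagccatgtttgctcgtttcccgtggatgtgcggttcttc
The NEAT2 (Malat1) sequence is chr19:5802623-5802922, the TUG1 sequence chr11:3648765-3649064 and the XIST sequence chrX:103483184-103483483, all on the minus strand. The TUG1 window had 71.3% G and C, 37 CpG dinucleotides and 1 GGGCGG. The NEAT2 window had 47% G and C, 10 CpG and no match to any of these motifs, and the XIST window had 41.3% G and C, 15 CpG, 1 TATAAA and 1 CCAAT. Over all 32817 promoters of the table the median was 52.7% G and C and 7 CpG. TATAAA was found in 13.6% of them, GGGCGG in 35.6%, CCAAT in 37.4% and TGANTCA in 7.81%.

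Levels below are log2 signal with the 75th percentile of each array set to 0. A probe was tested if the scanner software put it well above background on every array of 1 group or more. Of the lincRNA probes 5850 (36.0%) were, against 23932 (60.7%) of the other 39430 probes, and 7063 lincRNA probes were above background on no array. The tested probes covered 2668 of the 4610 loci (57.9%) and 9 of the 12 named transcripts. Their median level was -2.43, against 0.32 for the other tested probes. Forward-strand probes passed in 33.0% of cases and reverse-strand probes in 38.9%. Signals of different probes are not comparable amounts of RNA. Among the loci with the highest signal, the probe of chr11:22681800-22707775 (reverse strand) lay between 8.65 and 9.14 on the 15 arrays, and that of chr17:48068261-48087905 (forward strand) between 8.44 and 8.93. Their log2 differences between null and wild-type cells were 0.24 and 0.02, under the fold minimum used below.

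The share of lincRNA probes well above background on an array was 35.6 to 36.3% in wild-type, 30.0 to 31.8% in null and 35.1 to 38.5% in Map3k3 cells without Dox. It was 34.8, 22.2 and 29.3% in Map3k3 cells with Dox and 30.3 to 34.9% with EGFP. Replicate 2 of Map3k3 with Dox stood apart with the lowest share of all 15 arrays. The arrays lay on 2 slides and in 2 rows of a slide. Wild-type and null arrays shared a slide but lay in different rows, as did all arrays of Map3k3 without Dox and replicates 2 and 3 with Dox. All Map3k3 arrays, with and without Dox, lay on the other slide. Of the EGFP arrays, replicates 1 and 2 lay with Map3k3 and replicate 3 with wild-type. Differences of Map3k3 cells from wild-type or null cells therefore cannot be told apart from slide differences. The same holds in part for EGFP against null cells. From their own arrays, differences between wild-type and null cells cannot be told apart from row differences. The share well above background also split by row. It was 34.8 to 38.5% on the arrays in the row of the wild-type cells. On the arrays in the row of the null cells it was 22.2 to 32.7%. A change of the lincRNA signal can come from fewer cells of a type or from less RNA per cell, which cannot be told apart in these bulk samples.

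In null against wild-type cells, 1066 lincRNA probes rose and 677 fell, by limma with an adjusted p under 0.05 and at least 1.5-fold. These are 1743 of 5850 (29.8%), against 33.3% of all tested probes, so the share of changed lincRNA probes was not above the background. Of all tested probes 16.8% rose and 16.5% fell. Among the lincRNA probes 18.2% rose and 11.6% fell, and their median log2 difference was 0.16, against 0.12 over all tested probes. The split depended on the scaling. With the 75th percentile taken over probes detected on all 15 arrays, the median of all tested probes moved to -0.03 and that of the lincRNA probes to 0.02, and 800 rose and 821 fell. With slide row as a block, 920 rose and 532 fell. Only the Map3k3 Dox and EGFP groups lay in both rows, so that fit separates row from group through their arrays alone. Per locus, with the brightest tested probe standing for it, 432 rose and 227 fell. Here and below, a log2 difference is the fitted one; where the lower group was not above background on every array, it is no measured size, and only a fold given as "at least" bounds the change.

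**Figure D1:**
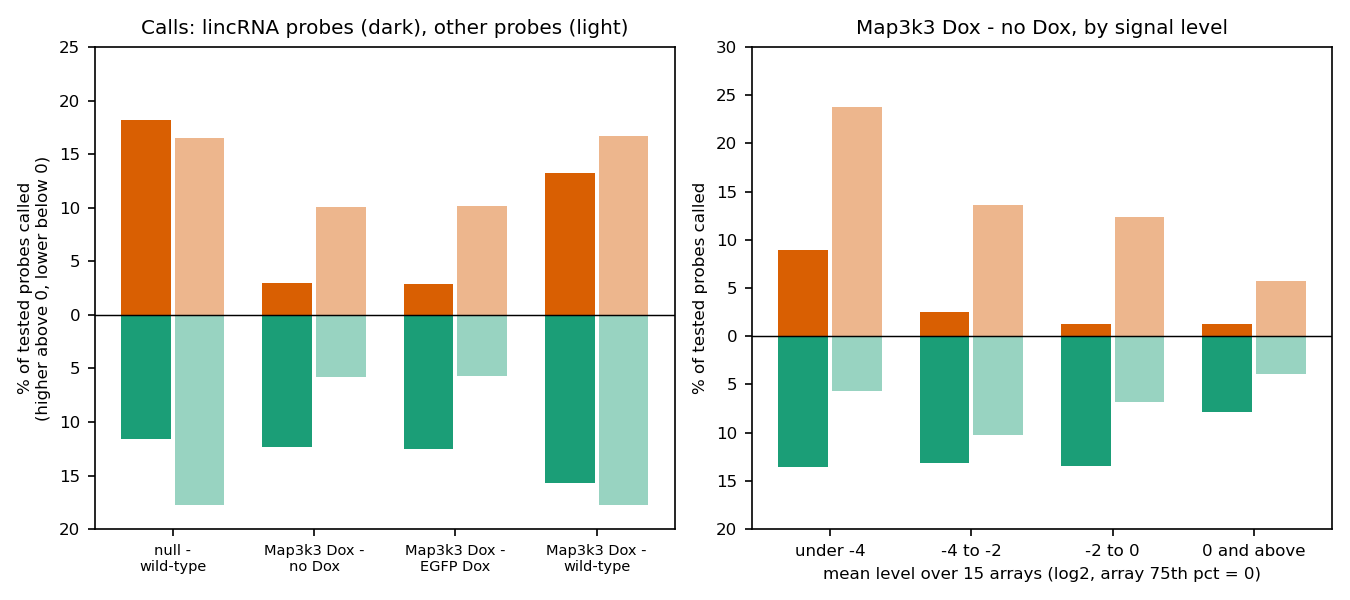
Left, percent of tested probes called higher (above 0) or lower (below 0) in 4 comparisons, for the 5850 lincRNA probes (dark bars) and the 23932 other probes (light bars). Right, the same for Map3k3 cells with against without Dox in bins of mean level over 15 arrays. With Map3k3, 12.3% of the lincRNA probes were lower and 2.94% higher, against 5.82% and 10.0% of the other probes.

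Of the named transcripts, H19, an imprinted RNA expressed from the maternal copy, fell furthest in null cells. All 5 of its probes fell, with log2 differences from -7.31 to -10.60 and bounds from at least 58.3-fold to at least 340-fold. The probe brightest in wild-type cells read 4.44, 4.37 and 4.44 there and -6.27, -6.11 and -6.18 in null cells. On the 9 transgene arrays it lay between -3.66 and -6.93. No array of a Nat1-null background came near the wild-type level, and since the probe was not above background on every null array the fall was at least 340-fold (SE 0.43 on the log2 scale, adjusted p = 3.21e-09). Another H19 probe, brighter in every Nat1-null group, read 3.87, 3.70 and 3.91 in wild-type and -3.63, -3.64 and -3.20 in null cells. It too was not above background on every null array, and its fall was at least 159-fold. TSIX rose on all 5 probes, by 1.42 to 1.76. Its brightest probe read -1.44, -0.90 and -0.99 in wild-type and 0.49, 0.76 and 0.31 in null cells, a 3.09-fold rise (adjusted p = 3.28e-06), and the groups did not overlap. TUG1, a lincRNA of broad expression, rose on all 5 probes, by 0.67 to 0.75. Its brightest probe read 1.64, 1.90 and 1.81 in wild-type and 2.53, 2.45 and 2.61 in null cells, which is 1.68-fold (adjusted p = 5.14e-05). The call of 4 of the 5 TUG1 probes was lost under the other percentile scaling, with log2 differences of 0.52 to 0.58.

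NEAT2 (Malat1) fell on all 3 probes, by 0.65 to 0.70 on the log2 scale. Its brightest probe read 2.57, 2.48 and 2.48 in wild-type and 1.86, 1.47 and 2.11 in null cells, without overlap (1.62-fold, adjusted p = 0.00788). Map3k3 cells without Dox, also Nat1-null, were not lower than wild-type cells. The means of this probe were 2.51 in wild-type, 2.52 in Map3k3 cells without Dox and 1.72 with EGFP. The fall missed the fold minimum or the p threshold on all 3 probes without null replicate 2, at -0.50 to -0.53, and with slide row as a block, at -0.43 to -0.54. XIST was called higher on 4 of 5 probes, with differences from 0.62 to 1.24. The probe at 1.24 was above background on no wild-type and no null array, so it gives no fold, and all 4 calls were lost with slide row as a block, at 0.25 to 1.17. The brightest read -2.91, -3.98 and -3.16 in wild-type and -2.65, -1.94 and -2.01 in null cells. A probe with the RefSeq accession of Xist, outside the lincRNA set, was above background on no array. NEAT1 differed by 0.33 to 0.41 and passed the fold minimum on none of its 5 probes. HOTAIR, PINC and lincP21 had no probe that passed the filter.

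**Figure D2:**
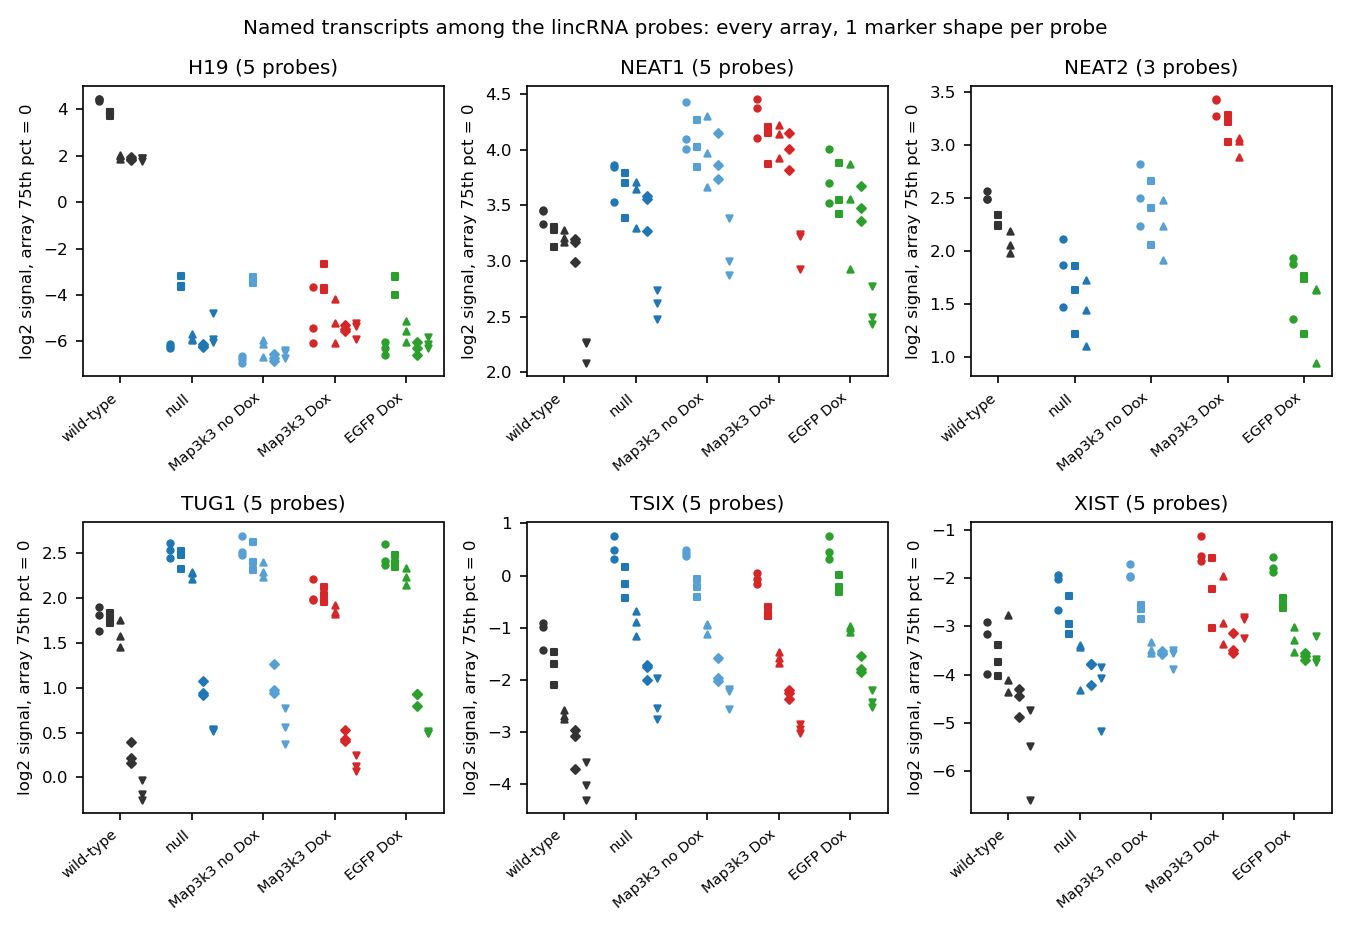
Log2 signal (array 75th percentile = 0) of every tested probe of 6 named transcripts on each of the 15 arrays, by group, with 1 marker shape per probe. All 5 H19 probes lie between 1.78 and 4.44 in wild-type cells and at -2.68 or lower in the other groups, and the 3 NEAT2 probes are highest in Map3k3 cells with Dox.

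Probes of 1 transcript did not always move together. The brightest of the KCNQ1ot1 probes, an imprinted antisense RNA, read 1.73, 1.96 and 1.64 in wild-type and 2.54, 2.07 and 2.51 in null cells (not called, adjusted p = 0.0623). A probe with the RefSeq accession of Kcnq1ot1, outside the lincRNA set, was called lower, from a mean level of 1.44 in wild-type cells to a signal above background on no null array. Among 68 long non-coding RNA genes listed by name, 39 were on the array through such accessions and 31 passed the filter. In null cells 8 rose and 9 fell, beside 16.8% and 16.5% of all tested probes. Those that fell, named after their values were seen, were Malat1, Platr26, Platr14, Platr5 and the imprinted RNAs H19, Meg3, Mirg, Kcnq1ot1 and Peg13. Those that rose were Snhg6, Snhg3, Dancr, Norad, Pvt1, Tug1, Platr20 and Dleu2.

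The locus with the largest rise in null cells was chr14:77077374-77086910 (forward strand). Its brightest probe read -2.65, -2.78 and -2.80 in wild-type and 2.58, 4.30 and 2.49 in null cells, a 58.3-fold difference (log2 5.86, SE 0.55, adjusted p = 2.88e-06). The 9 transgene arrays read 2.14 to 3.84, and in each of the 4 Nat1-null groups replicate 2 was the highest. The other 2 probes of the locus also rose, by 4.02 and 4.70. The locus chr11:120041124-120052299 (reverse strand) rose on all 5 of its tested probes, and its brightest went from -1.95, -1.89 and -2.20 to 1.30, 0.33 and 1.26 (7.86-fold). For chr4:82156098-82196298 (reverse strand) the wild-type arrays read -1.87, -2.10 and -1.95 and the null arrays 0.56, 0.60 and 0.60 (5.89-fold, adjusted p = 3.61e-08), with little spread in either group. The other 7 of the 10 leading loci lay on chromosomes 1, 4, 6, 10 and 19 and rose by 2.51 to 3.56, 5 of them from a wild-type signal that was not above background on every array.

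Of the 10 leading falling loci in null cells, 3 were overlapping reverse-strand intervals on chromosome 7. For chr7:67111261-67120645 the wild-type arrays read 3.62, 3.86 and 3.65 and the null arrays -4.56, -6.06 and -6.15, a fall of at least 208-fold (adjusted p = 2.87e-06). The interval chr7:67111261-67120697 fell at least 180-fold and chr7:67119535-67120213 at least 35.4-fold. Because they overlap, they count as 1 place. At chr15:96984422-97000322 (reverse strand) all 4 tested probes fell, and the brightest went from 0.24, 0.43 and 0.48 to -6.30, -6.13 and -6.21, at least 20.8-fold. At chr13:98571741-98603323 (reverse strand) all 4 tested probes fell as well, and the brightest went from -1.08, -1.18 and -1.28 to -5.44, -5.60 and -5.84, at least 7.06-fold. At these places no null array was well above background. Of the 10 leading falling loci, none was called higher with Map3k3, and all 10 remained called lower in Map3k3 cells with Dox than in wild-type cells. The latter comparison uses the same wild-type arrays by which these loci were picked, so it is no separate test of the fall.

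**Figure D3:**
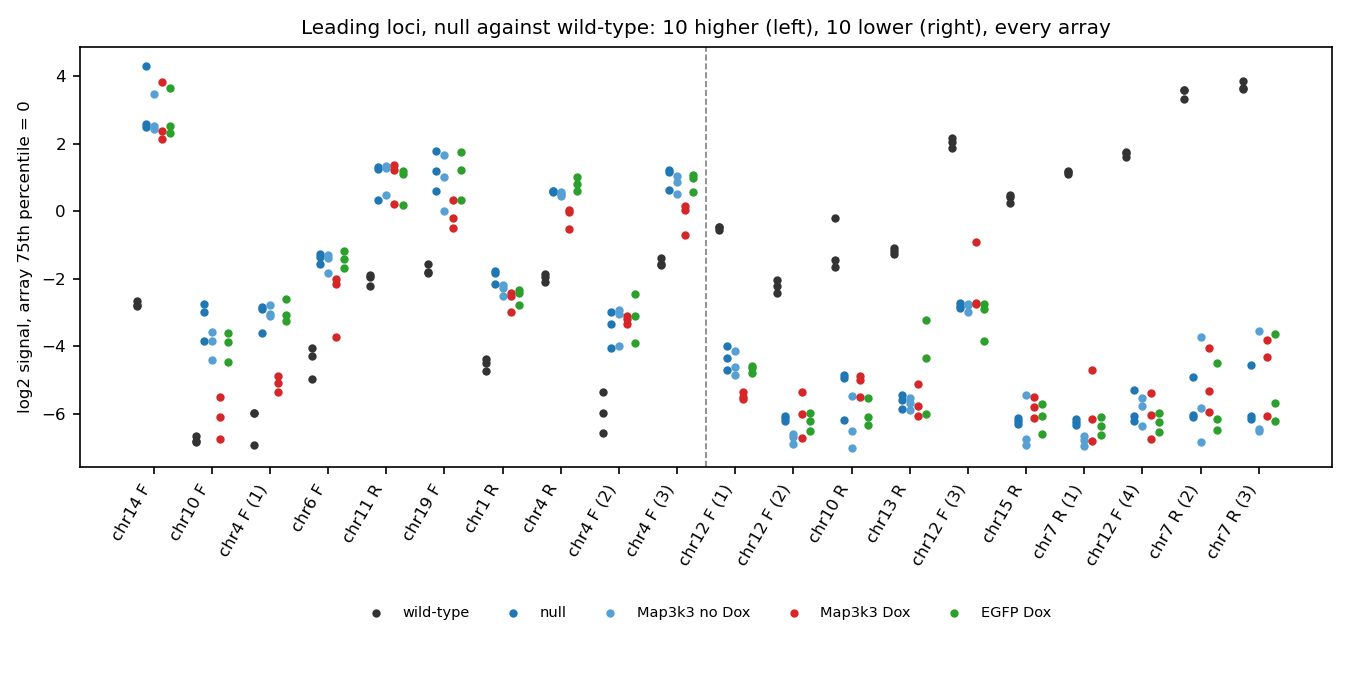
Log2 signal (array 75th percentile = 0) on each of the 15 arrays for the brightest probe of the 10 loci with the largest rise (left of the dashed line) and the 10 with the largest fall (right) in null against wild-type cells, labelled by chromosome and strand (F forward, R reverse). Each of the 10 falling loci has its 3 wild-type arrays above all 12 Nat1-null arrays.

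A run of 14 loci on chromosome 12, chr12:110738120-110988678, had the most changed loci of any run in which neighbours lie at most 100 kb apart: 9 fell and none rose. Distal chromosome 12 is known for the Dlk1-Dio3 imprinted domain, whose maternal long RNAs include Meg3 and Mirg. Of the 26 tested forward-strand probes in this run 23 fell (median log2 difference -3.91), and of the 12 reverse-strand probes 9 fell (median -2.65). At chr12:110894095-110899517 (forward) the wild-type arrays read 1.74, 1.73 and 1.62 and the null arrays -6.21, -6.07 and -5.28, at least 51.7-fold lower (adjusted p = 6.61e-09). At chr12:110842154-110883594 (forward), which was above background in all groups, 2.17, 1.86 and 2.05 became -2.87, -2.73 and -2.79, 28.3-fold lower. The brightest reverse-strand probes of chr12:110870903-110891628 and chr12:110896603-110940553 differed by -0.16 and 0.07 and were not called, while the forward-strand probes of the same intervals fell by 3.91 and 3.09 on the log2 scale.

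Within the run the brightest probe did not always speak for its locus. At chr12:110973190-110987668 (forward) it differed by 0.37, while another probe of the same locus fell by 4.23. At chr12:110944403-110988678 (forward) the brightest fell by 0.75, and 5 others had log2 differences of -1.58 to -6.01. The probes with the RefSeq accessions of Meg3 and Mirg were called lower, from mean levels of 5.67 and 2.54 in wild-type cells to a signal above background on no null array. With Map3k3, 1 forward-strand probe of the run was called lower and none higher.

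**Figure D4:**
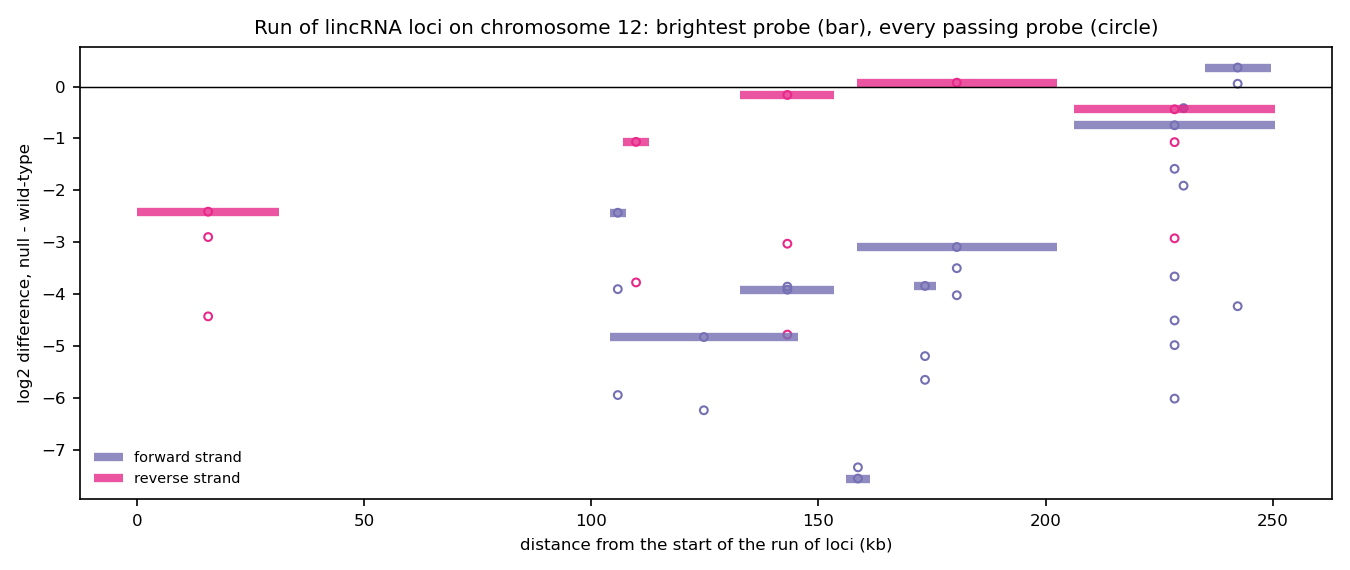
Log2 difference between null and wild-type cells along the run of 14 loci on chromosome 12, plotted by distance from its start in kb. Bars span each locus at the value of its brightest probe, circles at the middle of the locus show all tested probes, and colour gives the strand. Of 26 forward-strand probes 23 fell, down to -7.55, and 9 of 12 reverse-strand probes fell.

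Other runs moved one way too. In chr16:64758224-64843249 all 7 reverse-strand loci rose, by 0.93 to 2.08, and the 1 forward-strand locus, at 0.30, was not called. In chr12:88154776-88264465 5 of 7 loci rose, 3 of 3 on the reverse and 2 of 4 on the forward strand. In chr13:98221098-98603323 5 of 7 loci fell, and in chr8:19678750-20038750 5 of 11 fell, by 0.71 to 0.94. Over all runs, 90 pairs of neighbouring non-overlapping loci at most 100 kb apart were both called in null cells. Of these, 81 (90%) moved in the same direction (exact 95% binomial interval 81.9 to 95.3%, counting error only). The interval takes pairs as independent, but successive pairs of a run share a locus, so it may be too narrow. On opposite strands 15 of 20 such pairs did. Among called pairs more than 1 Mb apart on a chromosome the share was 53.8% of 10737. Neighbours may be parts of 1 transcript, which the intervals alone do not show.

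Of 1067 intervals with probes to both strands, 525 were detected on both, 389 on 1 and 153 on neither. In null cells 31 of the 525 were called on both strands, 27 of them in the same direction, and 171 on 1 strand. Within a locus, calls in opposite directions were rare: among 683 loci with at least 2 tested probes and at least 1 call, 267 had every probe called one way, 411 had some called and none opposite, and 5 had calls in both directions. The median correlation of 2 probes of a locus was 0.68 over the 15 arrays, a description, since they share target, arrays and groups. The loci with the most tested probes, 10 of 10 at chr5:74487385-74497428 (forward), chr2:158169020-158191295 (reverse) and chr6:116092274-116144199 (reverse), were not called at their brightest probe in null cells.

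By chromosome, the called share of tested lincRNA probes in null cells ran from 20.3% on chromosome 9 to 44.5% on chromosome 10. On chromosomes 2, 8 and X more were lower than higher (63 against 46, 76 against 47 and 38 against 27). Probes of a locus are not independent, so these shares rest on fewer loci than probes. Over all tested probes of the array 33.3% were called. The other probes were not split by chromosome, so whether a chromosome stands out for lincRNA probes alone was not tested.

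Markers of other cells moved with the comparison. Of 9 tested fibroblast or feeder markers (11 listed) 8 fell in null cells, and their summed signal, in multiples of the array's 75th percentile, was 95.4 to 101 in wild-type and 6.31 to 6.51 in null cells, where Acta2, Col1a2, Dcn, Twist2 and Lum were above background on no array. Of 10 tested trophectoderm markers 9 fell (210 to 219 against 14.0 to 33.1; Cdx2 and Elf5 not above background in null cells), and of 10 tested primitive endoderm markers 6 fell and 1 rose (24.8 to 27.9 against 4.60 to 7.70; Gata6, Foxa2, Sox17, Dab2, Pdgfra and Afp not above background). In such a sum the highest markers weigh most. The mean log2 level of Tagln was 6.05 in wild-type and 1.60 in null cells, and that of Krt18 7.30 and 3.40. The embryonic stem cell markers summed to 687 to 736 in wild-type and 1180 to 1237 in null cells. Their part in the lincRNA differences was not tested.

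With Map3k3 induced, many more lincRNA probes were lower than higher. In Map3k3 cells with against without Dox, 720 probes fell and 172 rose (limma, same thresholds). The 892 called are 15.2% of the tested lincRNA probes, against 15.7% of all tested probes, but the direction differed from the rest of the array: 12.3% fell and 2.94% rose, while of all tested probes 7.09% fell and 8.63% rose. Of the lincRNA calls 80.7% were lower, and of the calls among the other probes 36.7%. The share was 73.7 to 84.5% under the other scalings and background corrections, 80.1% without Map3k3 Dox replicate 2 (585 of 730), and 80.3% with slide row as a block (575 of 716). Without the filter on dim probes 635 fell and 450 rose (58.5% lower, against 35.8% of the calls over all probes). The median log2 difference then changed sign, to 0.24 for the lincRNA probes and 0.13 over all probes. Against EGFP cells with Dox, which share the Map3k3 Dox arrays with this comparison, 735 fell and 166 rose. These 901 are 15.4%, against 15.8% of all tested probes, of which 7.03% fell and 8.72% rose.

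The median level of the tested lincRNA probes was -2.50, -2.56 and -2.47 on the 3 arrays with Map3k3 and Dox, -2.23, -2.33 and -2.29 without Dox, and -2.22, -2.28 and -2.29 with EGFP. Every array with induced Map3k3 lay below every array of both control groups, within each slide row as well. In the first row -2.50 lay below the 3 arrays without Dox. In the other row -2.56 and -2.47 lay below -2.22 and -2.28 with EGFP. The wild-type arrays, at -2.37, -2.47 and -2.43, lay below every array of both control groups too. The null arrays read -2.35, -2.33 and -2.34. These medians depend on the filter, since a probe could pass it through a control group alone. Over the other tested probes the same arrays read 0.37, 0.39 and 0.35 with Map3k3 against 0.34 to 0.36 without Dox. Probe by probe, with against without Dox, these other probes leaned down too. Their median log2 difference was -0.11, against -0.22 for the lincRNA probes and -0.13 over all tested probes. Lower calls outnumbered higher ones among lincRNA probes in each of 4 bins of signal level. Among lincRNA probes with a mean level from -2 to 0, 13.5% fell and 1.31% rose, and among other probes of that level 6.83% fell and 12.4% rose. At 0 and above the shares were 7.91% and 1.30% for lincRNA probes and 3.90% and 5.78% for the others. By chromosome the share of lincRNA probes that fell ran from 4.72% on chromosome 19 to 19.8% on chromosome 9, and X was the only chromosome on which more rose (18) than fell (16). Here too the other probes were not split by chromosome.

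The embryonic stem cell markers summed to 894 to 943 with Map3k3 and Dox and to 1139 to 1201 without Dox. The trophectoderm markers summed to 363 to 433 with Map3k3 and Dox and to 13.9 to 27.9 without Dox (9 of 10 tested rose), and the primitive endoderm markers to 20.6 to 31.8 against 4.05 to 5.02 (9 of 10 rose and 1 fell). With Dox every listed marker of these 2 lists was above background on at least 1 array. Krt18 weighs most in the trophectoderm sum, with mean log2 levels of 8.28 with Dox and 3.31 without. Fibroblast or feeder markers summed to 11.2 to 14.5 against 5.07 to 6.47, with 4 of 9 higher and 1 lower, and Dcn, Twist2, Postn and Lum not above background with Dox. Their part in the lincRNA differences was not tested.

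Among the loci that fell with Map3k3, chr10:60473030-60535340 (reverse strand) had 5 of its 6 tested probes called lower, while the other, at 1.01, was higher and not called. Its brightest read 1.47, 1.12 and 0.79 without Dox, 1.10, 1.02 and 0.53 with EGFP and -1.17, -0.66 and -1.40 with Map3k3, which did not overlap (4.60-fold lower than without Dox, log2 SE 0.21, adjusted p = 1.3e-05). The wild-type arrays, at -1.19, -1.29 and -1.50, lay at the level with Map3k3. The locus chr6:82608223-82669023 (reverse strand) fell on all 3 tested probes, and its brightest read 0.38, 0.40 and 0.01 without Dox, -1.67, -1.98 and -1.43 with Map3k3 (3.88-fold lower, adjusted p = 1.28e-05) and -2.29, -2.59 and -2.30 in wild-type cells. By contrast chr9:118291593-118324230 (reverse strand), at -0.07, -0.27 and -0.13 without Dox and -1.44, -2.91 and -1.63 with Map3k3 (3.57-fold), fell below the wild-type values of -0.80, -1.09 and -0.84. The 10 leading falling loci had fitted log2 differences of -1.84 to -2.32. Of these 3 were above background on all arrays with Map3k3, 6 have only a bound (at least 1.43- to 2.25-fold) and chr10:21542515-21579890 has none. All 10 were also called lower than with EGFP, and 5 of them had been called higher in null than in wild-type cells. Over all 261 loci and named transcripts that fell at the brightest probe, 77 (29.5%) had been called higher there.

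Among the loci that rose, chr6:34548561-34612216 (forward strand, 1 probe) read -6.42, -6.59 and -6.25 without Dox and -2.44, -3.07 and -2.72 with Map3k3, against -2.20, -2.01 and -2.40 in wild-type cells. It was not above background without Dox, so the rise was at least 3.54-fold (log2 3.68, SE 0.17, adjusted p = 2.78e-08). The locus chr17:12990484-13018375 (forward strand, 1 probe) read -6.39, -5.55 and -5.81 without Dox and -2.81, -2.32 and -2.60 with Map3k3, at least 3.97-fold higher. All 10 leading rising loci rose from a signal not above background on every array without Dox, so that 9 folds are bounds (at least 1.12- to 4.52-fold), the lowest at chr13:114111261-114117957 with 1 of 3 Dox arrays above background. For chr17:3346621-3347209 no array of either group was above background, and no fold is given. All 10 were also called higher than with EGFP, and 9 had been called lower in null than in wild-type cells. Over all 63 loci and named transcripts that rose at the brightest probe, 34 (54.0%) had been called lower there. A probe that is dim without Dox can pass the filter through wild-type cells, which favours such calls, so the 9 are a description. The rises at chr10:93975406-93977476, chr13:114111261-114117957 and chr17:3346621-3347209 were no longer called with normexp background correction, at log2 differences of 0.49, 0.43 and 0.27. The fall at chr10:21542515-21579890 was no longer called either, at -0.46.

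**Figure D5:**
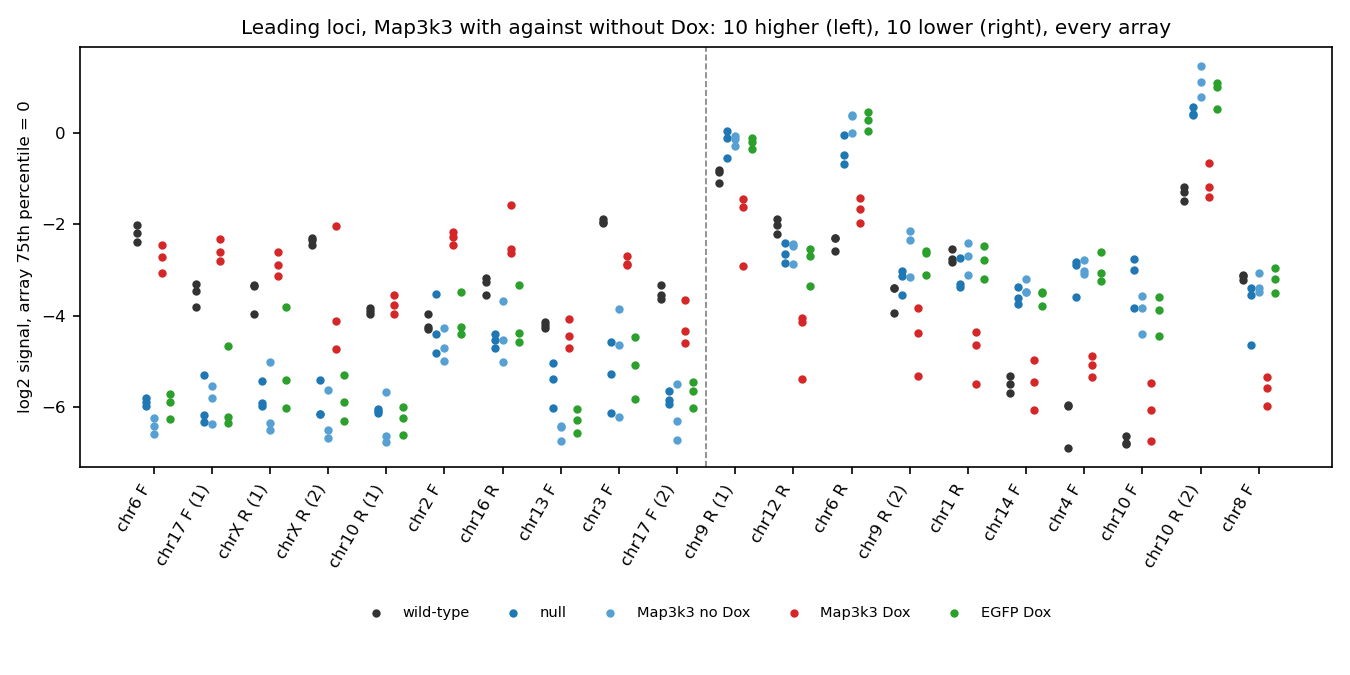
Log2 signal (array 75th percentile = 0) on each of the 15 arrays for the brightest probe of the 10 loci with the largest rise (left of the dashed line) and the 10 with the largest fall (right) in Map3k3 cells with against without Dox, labelled by chromosome and strand (F forward, R reverse). At the rising locus chr6 F the arrays with Map3k3 and Dox lie at -3.07 to -2.44, near wild-type and above the 3 other Nat1-null groups.

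The brightest probe hid some changes with Map3k3, and the following loci were chosen after their values were seen. The strandless locus chr17:012941161-012944859 had all 5 probes called higher, by 1.23 to 5.27, and all 5 had been called lower in null cells. Its most changed probe read -0.86, -1.06 and -1.13 in wild-type, -5.40, -6.91 and -6.59 without Dox, and -0.71, -1.35 and -1.04 with Map3k3. The wild-type and Map3k3 arrays overlap there, and none of the 5 probes was called between those groups. The neighbouring reverse-strand loci chr2:128137419-128141735 and chr2:128142035-128142481 rose on all 3 probes each, by 1.69 to 2.31 and by 1.92 to 2.86. At chr6:67155508-67216941 (reverse strand) 4 of 7 tested probes fell by 2.47 to 3.68 with Map3k3 and by 1.17 to 1.43 in null cells, while the other 3 probes, its brightest among them, differed by -0.25 to 0.04 with Map3k3. Every tested probe was called higher at 14 loci with at least 3 such probes, and lower at 56, chromosome 18 not counted.

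NEAT2 rose with Map3k3. Its brightest probe read 2.82, 2.23 and 2.50 without Dox and 3.43, 3.27 and 3.42 with Map3k3, above all other arrays (1.81-fold, log2 0.86, SE 0.19, adjusted p = 0.0046). All 3 probes rose, by 0.79 to 0.86 against cells without Dox and by 1.59 to 1.65 against EGFP cells. The sizes differ because the controls did, with means of 2.52 without Dox and 1.72 with EGFP at the brightest probe. NEAT1 differed by 0.03 to 0.13 and by 0.46 to 0.64 from the same controls and was called on none and on 1 of 5 probes. TUG1 differed by -0.41 to -0.61 (1 of 5 probes called lower) and TSIX by -0.42 to -0.62 (1 of 5 called lower), and both of these calls were lost under some alternatives. Of the H19 probes 4 were called higher than without Dox, but they were not above background on every array of either group and no fold is given.

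The null comparison and the comparison of Map3k3 with and without Dox share no arrays. Of the 172 probes that rose with Map3k3, 106 (61.6%) had fallen in null cells, which is 15.7% of the 677 that fell there. Over all tested probes the corresponding shares were 61.8% and 32.3%. Of the 720 that fell with Map3k3, 226 (31.4%) had risen in null cells, 21.2% of the 1066 that rose there, and over all probes the shares were 34.0% and 14.3%. In the same direction in both, 81 fell and 19 rose. Of 35 called pairs at most 100 kb apart with Map3k3, 30 (85.7%, exact 95% binomial interval 69.7 to 95.2%) had the same direction. Of 2573 pairs more than 1 Mb apart 68.8% did. Within 500 kb the interval was 64.5 to 86.8%, which included 68.8%. Successive pairs share a locus, so these intervals may be too narrow and do not test the difference.

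Against wild-type cells, Map3k3 cells with Dox had 774 lincRNA probes higher and 917 lower. These are 28.9%, against 33.3% of all tested probes (16% higher and 17.3% lower). The locus chr14:55671783-55680316 (reverse strand) read -2.69, -2.56 and -2.39 in wild-type, -0.45, -0.15 and -0.34 in null and 0.90, 0.91 and 1.10 with Map3k3, a log2 difference of 3.52 from wild-type (adjusted p = 4.78e-10). The locus chr5:143200557-143204033 (reverse strand) had the same order, with -2.12, -2.13 and -1.92, then -1.03, -1.28 and -0.87, then 1.15, 0.70 and 1.02 (8.07-fold). At both, null cells lay between the other groups without overlap. With slide as a block 1055 probes were called (489 higher, 566 lower). The wild-type and Map3k3 arrays lay on different slides, so group and slide cannot be fully told apart here.

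Few calls separated the Nat1-null control groups. Between EGFP cells with Dox and null cells limma called 1 lincRNA probe of 5850, against 0.00672% of all tested probes, and 507 had an unadjusted p under 0.05, as did 2211 of the 29782 probes tested. That probe, of chr12:82457625-82476325 (reverse strand), read -5.94, -5.83 and -5.64 in null and -3.39, -4.30 and -3.73 with EGFP (log2 2.00, SE 0.23), and it was not called with replicate number as a block. Between Map3k3 cells without Dox and null cells limma called none (0% of all tested probes), and 737 had an unadjusted p under 0.05, as did 4032 of all tested probes. With the replicate number as a block 12 were called, 11 higher and 1 lower.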

How the data were processed

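Processed green signals (intensity, arbitrary units) were deposited by the authors for 15 single-colour arrays, extracted under protocol GE1_1105_Oct12, with mm9 intervals, per the file headers; signals came already background-corrected. Log2 was taken here, spots of a probe were averaged and the array's 75th percentile was subtracted. The authors' deposited log2 values, an alternative, correlated with these at 1. Samples were grouped by genotype and treatment.

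One limma 3.58.1 model (R 4.3.3; 5 group means, 10 residual degrees of freedom, moderated two-sided tests) was fitted to the 29782 probes well above background on all 3 arrays of a group. P-values were Benjamini-Hochberg adjusted over these probes, and calls needed an adjusted p under 0.05 and at least 1.5-fold. For bounds, the lower group was raised to the lowest value well above background on the same array. The brightest tested probe stood for a locus. Named were the 10 rising and 10 falling loci with the largest difference and non-overlapping arrays in the 2 leading comparisons, 3 each way elsewhere, the brightest loci, those with most tested probes, and the 5 runs with most calls; those on chromosome 18 were passed over. The members, lists and rules were chosen with earlier results of these data known. The fit was tested on simulated data.

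Same-numbered arrays deviated together in 3 comparisons. Their correlations were 0.132, 0.300 and 0.195 in Map3k3 with against without Dox. They were 0.207 to 0.518 for EGFP against null and 0.215 to 0.566 for Map3k3 without Dox against null. Replicates 1 and 3 also correlated across groups, at 0.0739 and 0.118, 0.144 and 0.182, and 0.167 and 0.19 in the same order. Replicate 2 correlated negatively with both. These values set replicate 2 apart and do not show that the numbers pair all samples. In the other 3 comparisons at least 1 same-numbered correlation was under 0.1 (0.0872, 0.283 and 0.128 for Map3k3 Dox against EGFP). The main model took the numbers as pairs in no comparison, and the replicate block was an alternative. Normexp used median signals. Alternatives covered scaling, background correction, filter, fold minimum, blocks, left-out arrays and 1 value per locus.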

Additional observations from a re-analysis of the deposited data

How the results depend on the processing

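With normexp background correction the counts of called lincRNA probes were 1019 in null against wild-type, 369 in Map3k3 with against without Dox, 406 against EGFP and 944 against wild-type. With probes detected on all 15 arrays, fewer were tested and 839, 378, 391 and 790 were called in the same order. At least 2-fold left 1010, 405, 383 and 1030, and 1 value per locus, with fewer features tested, 720, 378, 359 and 680. Without a fold minimum, Map3k3 Dox called 1559 against no Dox and 1688 against EGFP. Slide as a block gave 1055 in Map3k3 Dox against wild-type, 10 in EGFP against null and 3 in Map3k3 without Dox against null. Only the EGFP group lay on both slides, so that fit separates slide from group through its arrays alone. The cause of these changes was not tested. The single EGFP call became 0 with normexp, without the filter, with probes detected on all arrays, with only the compared groups, with slide row or the replicate block, and per locus; leaving out an array gave 0 to 1 there. Map3k3 without Dox against null gave 1 with the other 75th percentile, 12 with the replicate block, and 0 to 1 with an array left out.

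Leaving out 1 array gave 1621 to 1717 in null against wild-type. Without Map3k3 Dox replicate 2 in fit and filter, an alternative chosen after seeing the data, 738, 759 and 1645 were called. The replicate block gave 1816, 1021, 982 and 1753 in the 4 large comparisons and changed no call of a named locus. Neighbours within 500 kb shared direction in 78.8% of called pairs in null cells. Of 823 alternatives for 52 values of named loci, 817 kept their call and 6 lost it. Most of these loci were picked for large, non-overlapping differences, and the named transcripts are not in that tally. With the transcripts included, normexp alone took the call from 16 values, reversed 2 and left 166 the same. The H19 differences of 2 probes near background reversed with normexp, to -0.029 against no Dox and -0.11 against EGFP.

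The low signal of most lincRNA probes limits what can be seen: 7063 were above background on no array, and folds from such signals are bounds.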
